A study of Mus musculus with 35 samples.

Results

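The genes that let a macrophage sense lipopolysaccharide (LPS), namely Tlr4, Ly96, Cd14, Tlr2 and Myd88, were described through the listed ChIP-seq regions around them. Every region up to 100 kb, in any of the 35 deposited region lists, that overlapped 1 of 5 windows on mouse build mm9 by at least 1 bp was taken. The windows were chr4:66450000-66550000 for Tlr4, chr1:16660000-16720000 for Ly96, chr18:36865000-36905000 for Cd14, chr3:83620000-83670000 for Tlr2 and chr9:119230000-119265000 for Myd88. This gave 238 regions out of 233211 regions up to 100 kb, or 250088 regions of every width. They were 100 to 63970 bp wide, with a median of 2085 bp. The lists are nested, so a narrow region can lie inside a wider one of the same list, and 75 of the 238 were at most 1 kb wide while 32 were wider than 10 kb.

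All libraries came from macrophages grown out of the bone marrow of wild-type female C57BL/6 mice aged 8 to 12 weeks, and the groups differ in the precipitated target and in the time with LPS, the cell-wall glycolipid by which these cells recognise Gram-negative bacteria. The NF-κB subunit p50 was profiled in 4 libraries at 60 min of LPS and in 3 unstimulated libraries. The subunit p65 had 1 unstimulated library and 2 libraries each at 60 and 120 min. ATF3, a stress-induced transcription factor, had 3 libraries at 240 min and no unstimulated one. Acetylated histone H4 (H4ac), found where chromatin is open and transcribed, was profiled in 2 libraries each, unstimulated and at 60, 120 and 240 min. RNA polymerase II (Pol II) had 1 unstimulated library, 2 at 60 min, 1 at 120 min, 2 at 240 min and 1 at 360 min. H3K27me3, the Polycomb mark of silenced chromatin, had 1 library each unstimulated and at 120, 240 and 480 min, and 1 whose title gives 60 min of LPS with a 7 h delay. Libraries of a group carry letters (A, B, C, D or X) in their titles. The labels do not tie letters to different mice or cultures. The spread behind every p-value is thus that of libraries and may be technical. For H4ac it also holds differences between times, since the LPS libraries of 60, 120 and 240 min were pooled.

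TLR4 is the signalling receptor for LPS. It binds LPS together with MD-2, the small secreted protein encoded by Ly96, after CD14 has passed on the LPS molecule from the LPS-binding protein of serum. TLR2 is the related receptor for bacterial lipoproteins, and MyD88 is the adaptor that couples both receptors to the kinases that release NF-κB into the nucleus. Tlr2 is itself known to be induced by LPS through NF-κB in macrophages.

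Promoter sequences were available in the RefSeq table for 2 of the 5 genes. They are shown because the Tlr2 window was the one with p50 in most lists and the Myd88 window the one where Pol II was listed under LPS alone. Each covers the 250 bases before the start of the gene on GRCm38.p6, read 5′ to 3′ on the minus strand that carries the gene. Positions on GRCm38.p6 cannot be set against the mm9 positions of the regions. The promoter stretch of Tlr2 lies at chr3:83841609-83841858 and that of Myd88 at chr9:119340019-119340268. Capitals mark the NF-κB consensus in Tlr2 and TATAAA, once on each strand and overlapping, in Myd88.
Tlr2: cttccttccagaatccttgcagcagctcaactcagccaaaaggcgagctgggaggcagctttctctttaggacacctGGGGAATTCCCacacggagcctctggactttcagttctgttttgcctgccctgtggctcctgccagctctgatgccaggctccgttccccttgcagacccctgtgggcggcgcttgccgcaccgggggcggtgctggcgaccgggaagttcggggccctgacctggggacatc
Myd88: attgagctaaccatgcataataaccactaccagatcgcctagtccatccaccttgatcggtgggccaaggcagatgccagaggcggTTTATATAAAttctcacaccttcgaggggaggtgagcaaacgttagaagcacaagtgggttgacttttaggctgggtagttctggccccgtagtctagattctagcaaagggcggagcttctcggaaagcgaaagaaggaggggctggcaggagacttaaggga
The capitals in Tlr2 start 173 bases before the gene's start and hold overlapping matches on both strands. This consensus occurred in 3.9% of all 32851 promoters of the same length. TATAAA, which occurred in 12.4% of them, lay 164 to 155 bases before the start of Myd88. The GC content was 62.8% for Tlr2 and 51.2% for Myd88, against a median of 52.4% over all promoters. TGACGTCA, TGAGTCA and GAGGAAGT were searched on both strands as well and occurred in 1.55%, 4.46% and 2.44% of all promoters, and none of these letters was found in either sequence.

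Some lists stood apart from the others of their target. Lists held 255 to 28522 regions. The p65 lists of letter A at 60 min and letter C at 120 min, which hold none of the 238 regions, resembled each other and the ATF3 lists B and C more than p65 lists of letter X. Of the regions up to 10 kb in the p65 list A, 25.3% were shared with the p65 list C, 25.8% with the ATF3 list C, 17.0% with the ATF3 list B and 0.753% with the ATF3 list A. For the p65 list C these shares were 26.7% with the p65 list A, 27.6%, 16.9% and 4.32%, against 1.87% with the p65 list X at 120 min. Of the regions up to 10 kb in the ATF3 list of letter B, 29.6% were shared with the p65 list A, 31.8% with the ATF3 list C and 7.28% with the ATF3 list A. The ATF3 list of letter C shared 22.5% of its regions with the p65 list A, 15.8% with the ATF3 list B and 5.43% with the ATF3 list A. The ATF3 list A, which gave 6 of the 7 ATF3 regions in the windows, shared 2.74% of its regions with the ATF3 list B and 3.99% with the ATF3 list C. Of the p65 list A, 0.222% were shared with the p65 list X at the same time. The p65 lists A and C and the ATF3 lists B and C gave a single region below, an ATF3 region of letter C in the Cd14 window. The p50 list of letter D under LPS was the shortest of the LPS lists of p50, with 324 regions against 1118 to 1378 in letters A to C, and it held none of the 238. The unstimulated p50 lists were short as well, with 424 regions in letter A, 447 in letter C and 354 in letter D. Any p50 region was thus less likely to be listed in them than in LPS lists A to C. The Pol II list at 360 min, with 2948 regions against 4559 to 7728 in the other Pol II lists, was the shortest of its target, and the title of the unstimulated Pol II library carries a date that no Pol II library with LPS shares. Which gene part lies under a region is not analysed here. In the RefSeq gene order of GRCm38.p6 the neighbouring coding genes are Trim32 and Brinp1 for Tlr4, Tmem70 and Jph1 for Ly96, E230025N22Rik and Tmco6 for Cd14, Sfrp2 and Tmem131l for Tlr2, and Oxsr1 and Acaa1a for Myd88. A window can hold parts of such neighbours, and their regions cannot be told apart from those of the gene it is named for.

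H4ac was present at every one of these genes in every H4ac list, unstimulated and with LPS alike, and carried 145 of the 238 regions. Pol II carried 76, p50 8, ATF3 7 and p65 2. All 8 H4ac lists held a region up to 100 kb in each window. Of all tiles of the genome as long as the window, this was true of 20.0% for the 100-kb Tlr4 window, 14.1% for the 60-kb Ly96 window, 10.5% for the 40-kb Cd14 window, 12.3% for the 50-kb Tlr2 window and 9.49% for the 35-kb Myd88 window. Pol II was in all 7 lists at Ly96 and Cd14, in 6 of 7 at Tlr4 and Tlr2, and in 5 of 7 at Myd88. Tiles with Pol II in all 7 lists made up 2.14% at the length of the Ly96 window and 1.52% at that of the Cd14 window, or 13.6% and 12.2% of the tiles of those lengths with H4ac in all 8 lists. No H3K27me3 region up to 100 kb touched any window in any of the 5 H3K27me3 lists. To hold no region up to this width is common in the genome, since 84.9% of 100-kb tiles and 90.8% of 35-kb tiles held none, as did 71.3% and 86.3% of those with H4ac in all 8 lists. Wider H3K27me3 regions are left out of these shares. Over the Myd88 window 4 lists held one of 28.5 to 29.5 Mb, and over the Tlr2 window 1 list held one of 0.507 Mb. The p50, p65 and ATF3 regions were limited to Tlr2, Cd14 and, for ATF3 alone, Tlr4, and the windows of Ly96 and Myd88 held none. Tiles with a p50 region in at least 1 list made up 4.22% of the genome at 50 kb and 3.43% at 40 kb, or 15.6% and 14.2% of the tiles with H4ac in all 8 lists. For p65 these shares of the genome were 7.82% and 6.37%, and for ATF3 they were 11.0% and 9.04%, with 19.9% at 100 kb. Of the tiles with H4ac in all 8 lists, 14.8% and 13.0% held p65 at these lengths, and 28.3% and 25.6% held ATF3, with 41.0% at 100 kb.

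The sensing receptor Tlr4 carried a compact H4ac core in all 8 lists. The stretch common to them spanned 720 bp at chr4:66488791-66489510. In the unstimulated lists the narrow region at the core was 760 bp wide with a score of 3.69 in letter A, and 770 bp wide with a score of 2.98 in letter B. These scores are the authors' own and were used only to place a region within its list, where the unstimulated cores stood in the top 2.26% and 4.20%. At 60 min the best-scored region at the core stood at 38.6% and 49.3% from the top of its list, at 120 min at 24.5% and 42.7%, and at 240 min at 16.9% and 11.7%. These places, like all those given below for the other genes, come from lists of different lengths, so no change can be read from them. No merged H4ac region up to 10 kb elsewhere in the window was held by more than 1 list.

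Around that core, the part of the Tlr4 window covered by H4ac regions up to 100 kb was long in both unstimulated lists and short in both lists at 60 min. It covered 25.8 and 23.4 kb unstimulated, 2.18 and 4.06 kb at 60 min, 42.0 and 4.52 kb at 120 min, and 36.3 and 0.93 kb at 240 min, with letter A first and letter B second. The 60 min values lay below both unstimulated ones, whereas at 120 and 240 min letter A was above and letter B below its unstimulated list. Over all times the LPS libraries averaged 15.0 ± 18.8 kb (SD, n = 6) and the unstimulated libraries 24.6 ± 1.67 kb (SD, n = 2). The difference of −9.60 kb was within the spread between libraries of the pooled times (exact two-sided permutation test, p = 0.429). This test does not address 60 min alone. The long unstimulated cover rested on 1 region wider than 10 kb per list, of 25020 bp at 91.9% from the top in letter A and of 23420 bp at 38.6% in letter B, and letter A at 120 and 240 min held such a region too. Counting only regions of at most 10 kb, the LPS libraries differed by −0.708 kb. Such a test of 6 against 2 libraries cannot give a p below 0.0714.

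Pol II at Tlr4 was listed over different stretches unstimulated and with LPS. The unstimulated list held a single region of 11860 bp at chr4:66499691-66511550, more than 10 kb away from the H4ac core. All 5 lists of 60, 120 and 240 min held a region up to 10 kb at the core, from 900 bp in letter A at 60 min to 3360 bp at 120 min. The stretch common to these 5 lists, chr4:66488991-66489890, overlapped the common H4ac stretch by 520 bp. At 120 min and in both lists at 240 min, wider regions of 25120, 31890 and 19330 bp covered the stretch that the unstimulated list held. The list at 360 min held no Pol II region in the window. Among all 9092 Pol II regions up to 10 kb, merged over the lists, 1.36% were held by all 5 lists of 60 to 240 min and not by the unstimulated list, and this was the case for 2 of the 12 merged regions in the windows, those at Tlr4 and Myd88. Of the merged regions held by those 5 lists, 22.8% were not held by the unstimulated list, and this was so for 2 of 5 in the windows. With the 10-kb limit replaced by 100 kb, the wide regions joined the core to the stretch of the unstimulated list at Tlr4, and 1 of 10 merged regions remained, against 2.33% of all. The single ATF3 region, 140 bp at chr4:66489741-66489880 in letter A, lay within the Pol II region of all 5 lists and stood at 79.6% from the top of its list. Neither p50 nor p65 was listed in the Tlr4 window.

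**Figure D1:**
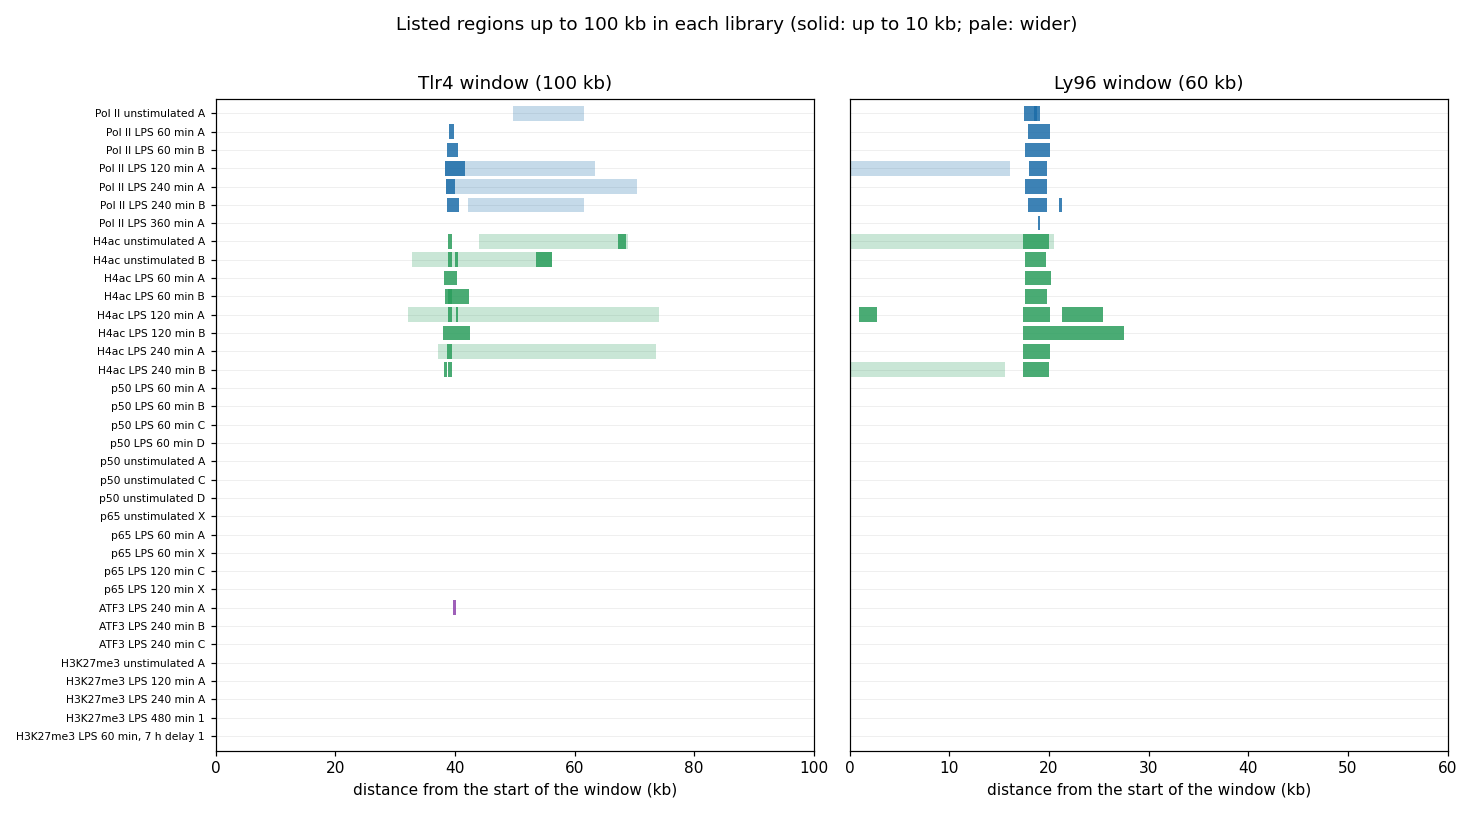
Listed regions up to 100 kb in the Tlr4 and Ly96 windows, with distance from the start of the window in kb on the x axis and 1 row for each of the 35 libraries; solid bars are regions up to 10 kb and pale bars wider ones. The H4ac and Pol II bars stack at 1 place in each window, Pol II is away from that place in the unstimulated row of Tlr4, and the p50, p65 and H3K27me3 rows are empty.

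Ly96, which encodes the LPS-binding co-receptor MD-2, carried H4ac and Pol II at a shared place in every list of both targets. All 8 H4ac lists held a block of 2180 to 3430 bp, and 2140 bp of it, chr1:16677591-16679730, were common to all of them. Its score placed it between 1.93% and 6.44% from the top of each list. All 7 Pol II lists held a region up to 10 kb inside this block. It was 1530 bp wide in the unstimulated list, 2190 and 2510 bp at 60 min, 1830 bp at 120 min, 2150 and 1890 bp at 240 min, and 180 bp at 360 min. Its place from the top was 37.2% unstimulated, 82.4% and 38.2% at 60 min, 22.4% at 120 min, 38.6% and 18.9% at 240 min and 67.0% at 360 min. A narrower unstimulated region of 230 bp at the block stood at 17.0%. The stretch shared by all 7 was 160 bp at chr1:16678891-16679050. Merged Pol II regions up to 10 kb held by all 7 lists were 2 of 12 in the windows, those at Ly96 and Cd14, against 3.22% of all.

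Next to the block, both H4ac lists at 120 min held regions that no other list had at that place. They were 4030 bp in letter A and 6710 bp in letter B, within chr1:16680771-16687480, and both scored low, at 81.5% and 98.3% from the top of their lists. Of the 13 merged H4ac regions up to 10 kb in the windows, this was the only one held by both lists of a time with LPS and by neither unstimulated list. That gives 0 of 13 at 60 min, 1 of 13 at 120 min and 0 of 13 at 240 min, against 2.7%, 3.85% and 5.57% of all 24406 merged H4ac regions. Without the letter B library at 120 min the count at 120 min was 2. Compared with the unstimulated list of the same letter, covered length in the Ly96 window was lower at every LPS time in letter A and at none in letter B. Letter A covered 20.5 kb unstimulated and 2.70, 8.54 and 2.70 kb at 60, 120 and 240 min, while letter B covered 2.18 kb unstimulated and 2.21, 10.1 and 18.3 kb at those times. The LPS libraries averaged 7.43 ± 6.29 kb (SD, n = 6) and the unstimulated libraries 11.4 ± 13.0 kb (SD, n = 2). The difference of −3.93 kb was within that spread (exact two-sided permutation test, p = 0.643), and without the unstimulated library of letter A it was 5.25 kb, with the opposite sign.

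Cd14, the surface protein that hands LPS to the receptor, had the densest window, with 105 of the 238 regions in 40 kb. H4ac covered between 25.8 and 40.0 kb of it in the 8 lists, and letter B at 240 min held it as a single region of 51470 bp. In the other 7 lists, regions up to 10 kb shared 5 stretches, of which the widest was 2300 bp at chr18:36883991-36886290. The region over this widest stretch was the best-scored H4ac region of the window in both unstimulated lists, at 1.63% and 3.73% from the top. At 60 min it was so again, at rank 57 of 22911 regions in letter A and at rank 33 of 14589 in letter B, which are places of 0.249% and 0.226%. At 120 min the region there stood at 55.1% in letter A and 5.83% in letter B, and at 240 min at 40.3% in letter A, while the single region of letter B stood at 8.83%. In letter A at 120 and 240 min the best-scored region of the window lay elsewhere, at chr18:36903771-36904730 and chr18:36903661-36905230, at 9.19% and 10.6% from the top. The LPS libraries covered 35.7 ± 5.41 kb (SD, n = 6) and the unstimulated libraries 34.2 ± 8.18 kb (SD, n = 2), a difference of 1.50 kb that was within the spread (exact two-sided permutation test, p = 0.929). Its sign turned, to −4.29 kb, without the unstimulated library of letter B.

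Pol II at Cd14 formed a block that all 7 lists held. The shared stretch was 3600 bp at chr18:36882521-36886120 and overlapped the widest shared H4ac stretch by 2130 bp. The region at this block had rank 184 of 6715 by score in the unstimulated list. At 60 min it was among the best-scored of its list, with rank 28 of 4941 in letter A and rank 18 of 5404 in letter B, or 0.567% and 0.333% from the top. Its place from the top was 32.8% at 120 min, 15.4% and 7.41% at 240 min and 28.1% at 360 min. Both lists at 60 min also held Pol II regions between 36878991 and 36881120 on chromosome 18, a stretch that in the other lists held no Pol II region up to 10 kb. Pol II covered 10.6 kb of the window in the unstimulated list, 27.6 and 21.2 kb at 60 min, 5.35 kb at 120 min, 7.00 and 21.2 kb at 240 min and 27.7 kb at 360 min. These values had no order with time, and the unstimulated one lay inside the range of those with LPS.

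The 3 transcription factors were all listed in the Cd14 window, where p50 overlapped neither p65 nor ATF3, while p65 and ATF3 overlapped at 1 place. A p50 region lay at chr18:36893611-36893730 in letter A and at chr18:36893181-36893770 in letter C at 60 min of LPS. The LPS lists of letters B and D and the 3 unstimulated lists held none. The unstimulated p50 lists were short, as given above. The p50 stretch lay 7490 bp away from the shared Pol II block, and overlapped Pol II regions of both 60 min lists and H4ac regions of 6 lists. p50 covered 0.178 ± 0.281 kb in the LPS libraries (SD, n = 4) and was listed at 0 in all 3 unstimulated libraries (exact two-sided permutation test, p = 0.571, where 4 against 3 cannot give less than 0.0571). Without the LPS library of letter C the difference was 0.04 kb, against 0.178 kb with it. The p65 list of letter X at 60 min held a region of 4010 bp at chr18:36882271-36886280, over the Pol II block, near the end of its list at 89.8% from the top. The other p65 lists, among them letter A at 60 min, held none. ATF3 was listed at chr18:36868321-36868840 in letter A, at 4.52% from the top, and at chr18:36868611-36868830 in letter C, at 35.7%, a list that shares regions with the p65 lists as described above. Among merged ATF3 regions, 8.92% were held by at least 2 of the 3 lists, and 1 of the 5 in the windows was. A further ATF3 region of letter A, chr18:36886201-36886550, touched the p65 region and the Pol II block of 6 lists. Another ATF3 region of letter A, 27420 bp wide, covered both places.

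**Figure D2:**
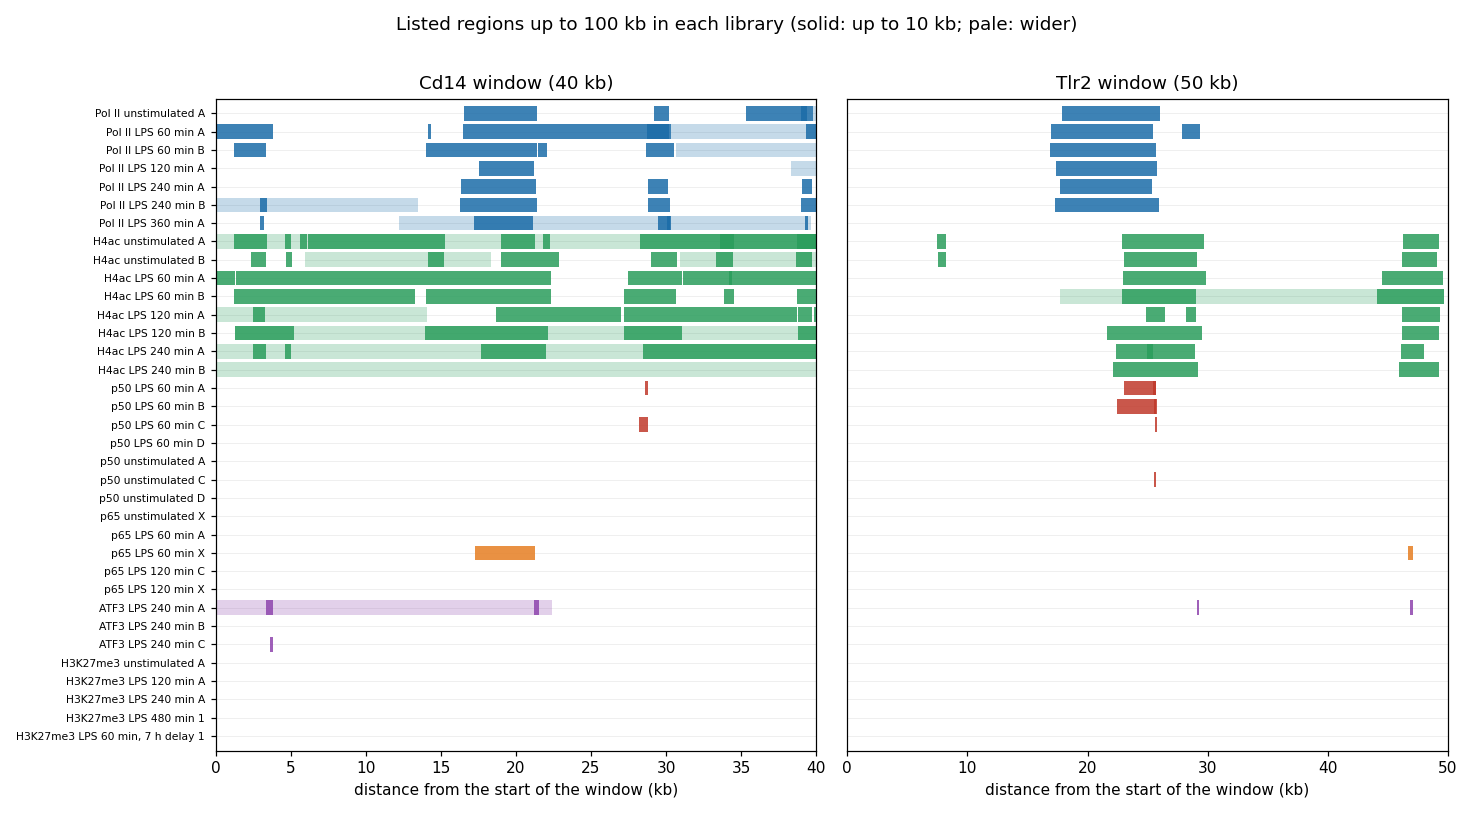
Listed regions up to 100 kb in the Cd14 and Tlr2 windows, with distance from the start of the window in kb on the x axis and 1 row for each of the 35 libraries; solid bars are regions up to 10 kb and pale bars wider ones. Cd14 is covered by H4ac almost throughout, and in Tlr2 the p50 bars of 4 lists meet the right-hand end of the Pol II bars.

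At Tlr2, the lipoprotein receptor gene, p50 was listed at 1 narrow place in most LPS lists. The best-scored region was 240 bp wide in letter A, 130 bp in letter B and 100 bp in letter C at 60 min of LPS, and it stood at 16.3%, 4.35% and 10.9% from the top of its list. The LPS list of letter D held none. Of the unstimulated lists, letter C held a region of 170 bp at the same place, at 63.3% from the top, and letters A and D held none. As given above, the unstimulated p50 lists were shorter than LPS lists A to C, and the part of list length in this was not tested. All 4 regions shared the 100 bp chr3:83645581-83645680. Since an unstimulated list held it, it was not called gained, a call that needed 3 or more LPS lists to hold a region absent from every unstimulated list. By that rule 0 of the 2 merged p50 regions in the windows were gained and 0 lost, against 9.6% and 0.646% of all 2478 merged p50 regions. Without the unstimulated library of letter C the Tlr2 region met it, which made 1 of 2 gained. At least 3 LPS lists held 18.5% of all merged p50 regions and 1 of these 2. Together with wider regions of letters A and B, p50 covered 2.63, 3.22, 0.10 and 0.00 kb of the window in LPS letters A to D, against 0.00, 0.17 and 0.00 kb in unstimulated letters A, C and D. The LPS mean was 1.49 ± 1.68 kb (SD, n = 4) and the unstimulated mean 0.0567 ± 0.0981 kb (SD, n = 3). The groups overlapped, and the difference of 1.43 kb was within the spread (exact two-sided permutation test, p = 0.4). It was 0.853 kb without the LPS library of letter B, 0.0608 kb with regions up to 1 kb and 0.118 kb in the better-scored 50% of each list.

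The p50 place in the Tlr2 window lay at the edge of the Pol II regions with the higher coordinates, and H4ac was present there in all 8 lists. Edge here means position on the chromosome and not the end of transcription, since Tlr2 is on the minus strand. Pol II was listed as a domain of 7650 to 8790 bp in 6 of the 7 lists, and its higher end fell between 83645350 and 83646070 on chromosome 3, a spread of 720 bp around the 100 bp shared by the p50 lists. The domain was 8220 bp in the unstimulated list, 8490 and 8790 bp at 60 min, 8440 bp at 120 min, and 7650 and 8650 bp at 240 min. The 360 min list held none. Its score placed it at 65.9% from the top of the unstimulated list, at 2.57% and 5.61% at 60 min, at 25.2% at 120 min, and at 82.0% and 39.4% at 240 min. Pol II in all 5 lists of 60 to 240 min and not at 360 min was found for 2.02% of all merged Pol II regions up to 10 kb and for 3 of the 12 in the windows, at Tlr4, Tlr2 and Myd88. Of the merged regions held by those 5 lists, 33.9% were not held at 360 min, and this was so for 3 of 5 in the windows. As given above, the 360 min list was also the shortest of its target. At the lengths of the windows, 27.4% to 33.0% of tiles with Pol II in those 5 lists held none at 360 min.

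H4ac at Tlr2 was listed in 2 blocks in all 8 lists, at chr3:83641621-83649870 and chr3:83664101-83669680. The stretch common to all lists in the first block, chr3:83644871-83646460, held the p50 place and overlapped the shared Pol II stretch by 480 bp. A further, smaller H4ac region at chr3:83627441-83628240 was in both unstimulated lists, 800 bp wide in letter A and 690 bp in letter B, and in none of the 6 lists with LPS. It was therefore called lost at each time, as 1 of 13 merged regions in the windows, against 12.8% of all at 60 min, 15.8% at 120 min, 11.1% at 240 min and 7.42% at all 3 times. The count of lost regions was 2 at each time without the unstimulated library of letter A, likewise without that of letter B, and 3 at 240 min without the letter A library of that time. Its score placed it at 59.9% and 90.1% from the top of its lists. Covered length was 10.7 and 9.78 kb unstimulated, 12.1 and 32.0 kb at 60 min, 5.59 and 11.0 kb at 120 min, and 8.44 and 10.4 kb at 240 min in letters A and B. Letter B at 60 min alone was well above the rest, through a region of 32000 bp that joined both blocks. The LPS mean was 13.2 ± 9.47 kb (SD, n = 6) and the unstimulated mean 10.2 ± 0.651 kb (SD, n = 2). The difference of 3.01 kb was within the spread (exact two-sided permutation test, p = 0.857) and was −0.746 kb without that library.

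The second H4ac block of the Tlr2 window held both a p65 and an ATF3 region. A p65 region of letter X at 60 min, 390 bp at chr3:83666731-83667120, contained an ATF3 region of letter A at 240 min, 160 bp at chr3:83666891-83667050. They stood at 82.5% and 34.7% from the top of their lists. No Pol II list and no p50 list had a region up to 100 kb there. Another ATF3 region of letter A, 210 bp at chr3:83649101-83649310, lay in the first block.

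Myd88, the adaptor gene, was the member at which Pol II was listed with LPS and not without it. The 5 lists of 60, 120 and 240 min held Pol II over a common stretch of 1180 bp, chr9:119248761-119249940. The unstimulated list and the 360 min list held no Pol II region up to 100 kb anywhere in the window. The region at this stretch was 1700 bp in letter A and 7060 bp in letter B at 60 min, 1540 bp at 120 min and 1310 bp in letter B at 240 min, and ran over chr9:119248191-119250060 in letter A at 240 min. Its place from the top of its list was 63.4% and 54.1% at 60 min, 16.6% at 120 min, and 21.5% and 16.8% at 240 min. Covered length was 0.00 kb unstimulated, 1.70 and 7.06 kb at 60 min, 4.79 kb at 120 min, 6.19 and 8.10 kb at 240 min, and 0.00 kb at 360 min. Of 35-kb tiles, 0.427% had Pol II in all 5 of those lists and not in the unstimulated one, which is 18.3% of the tiles with Pol II in those 5. A single unstimulated Pol II library allows no test, and its title date differs from those of the LPS libraries, so date and stimulation cannot be told apart.

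H4ac at Myd88 was listed in all 8 lists at the stretch that carried Pol II with LPS. The common H4ac stretch, 1370 bp at chr9:119248601-119249970, contained the whole common Pol II stretch. The narrow region there stood at 24.9% and 44.2% from the top of the unstimulated lists, at 6.12% and 8.44% at 60 min, at 2.03% and 1.51% at 120 min, and at 2.55% and 3.25% at 240 min. As at Tlr4, the lists differ in length, so no change can be read from these places. Another narrow H4ac place, 140 bp at chr9:119231591-119231730, was also common to all 8 lists, at 1.89% to 5.27% from the top. It lay 17030 bp from the shared Pol II stretch. Both counted among the 6 of 13 merged H4ac regions in the windows held by all 8 lists, against 23.4% of all. The LPS libraries covered 17.9 ± 4.57 kb (SD, n = 6) and the unstimulated libraries 13.4 ± 8.56 kb (SD, n = 2). The difference of 4.45 kb was within the spread (exact two-sided permutation test, p = 0.357), and it was −1.60 kb without the unstimulated library of letter A, which covered 7.36 kb against 19.5 kb in letter B.

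**Figure D3:**
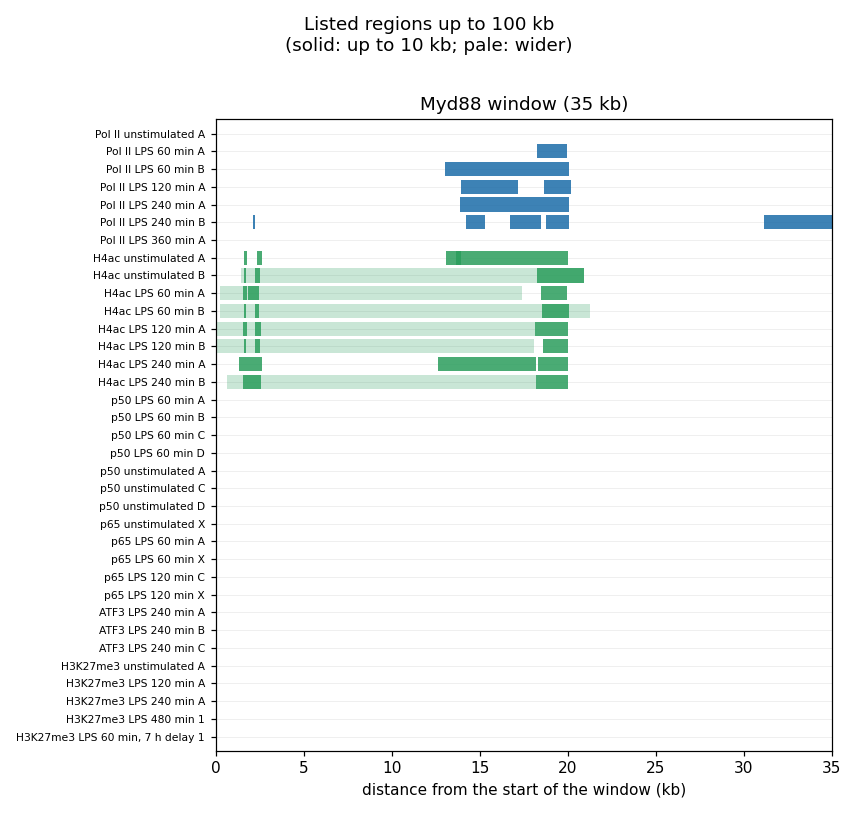
Listed regions up to 100 kb in the Myd88 window, with distance from the start of the window in kb on the x axis and 1 row for each of the 35 libraries; solid bars are regions up to 10 kb and pale bars wider ones. Pol II bars are present in the 5 rows of 60, 120 and 240 min and absent from the unstimulated and 360 min rows, while H4ac bars stand in all 8 rows.

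Set side by side, the length covered by Pol II with LPS exceeded the unstimulated value in every LPS library of 60 to 240 min at Myd88 and Ly96, and lay on both sides of it over those times at Tlr4, Cd14 and Tlr2. At 360 min it was below the unstimulated value at Tlr4, Ly96 and Tlr2, above it at Cd14, and at 0.00 kb like it at Myd88. The Ly96 order depended on the setting, and the unstimulated list also held a region of 130370 bp there. The mean Ly96 difference, LPS minus unstimulated, was −15.3 kb with regions of every width and 0.288 kb with regions up to 10 kb. It was −0.173 kb with regions up to 1 kb and −0.133 kb in the better-scored 50% of each list. The LPS libraries averaged 4.64 ± 3.18 kb at Myd88 against 0.00 kb unstimulated, 13.5 ± 14.2 kb at Tlr4 against 11.9 kb, 4.50 ± 6.64 kb at Ly96 against 1.53 kb, 18.3 ± 9.87 kb at Cd14 against 10.6 kb, and 7.25 ± 3.63 kb at Tlr2 against 8.22 kb (SD, n = 6 with LPS and 1 unstimulated). At Tlr2 the LPS libraries of 60 to 240 min covered 7.65 to 9.97 kb. For H4ac and p50, none of the 7 tests of covered length in windows with a listed region passed a p of 0.05, and no window separated the LPS libraries from the unstimulated ones. Of tiles with H4ac in any list, 12.0% to 13.1% at the lengths of the windows had a shorter H4ac length in every LPS list than in both unstimulated lists, and 3.85% to 4.21% a longer one. Neither 6 against 2 nor 4 against 3 libraries could have reached that threshold.

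**Figure D4:**
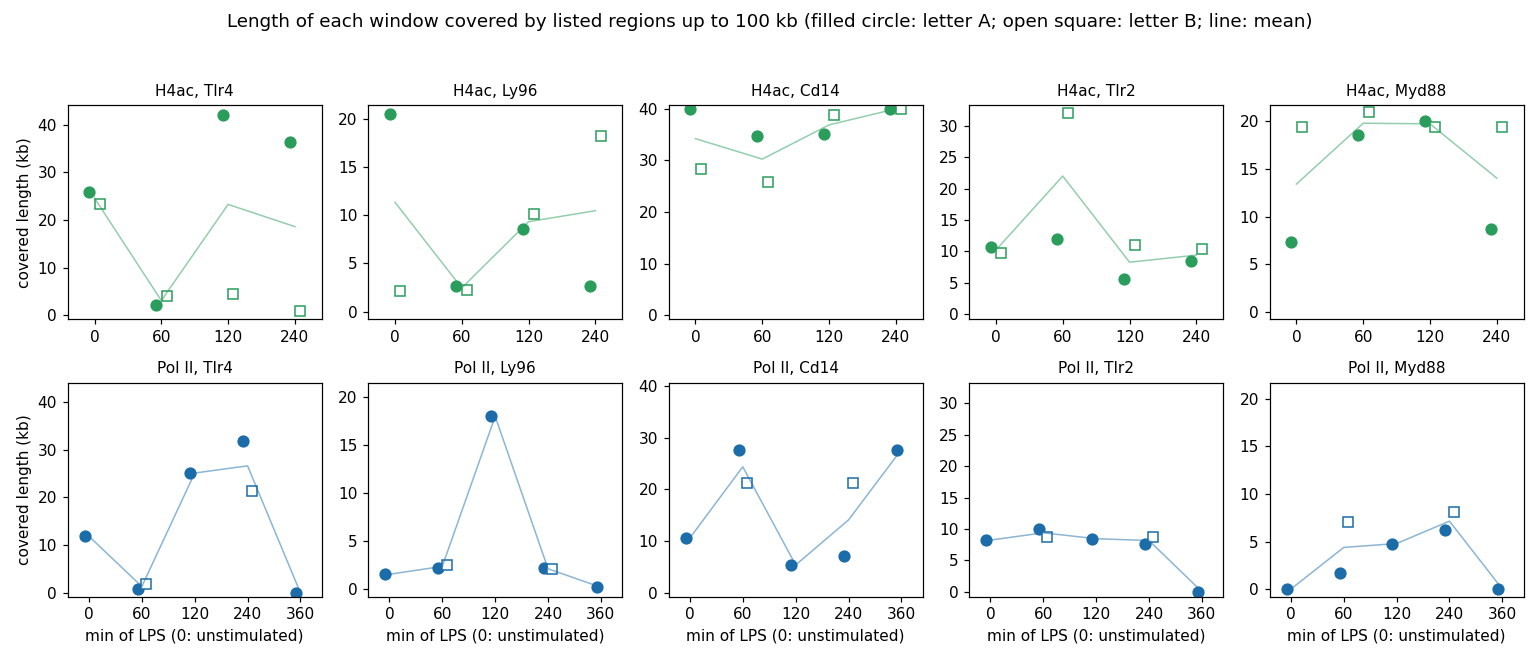
Length of each window in kb covered by listed H4ac (top) and Pol II (bottom) regions up to 100 kb, against minutes of LPS with 0 for unstimulated; filled circles are letter A, open squares letter B, and the line joins the means. H4ac at Tlr4 is low in both letters at 60 min, with 2.18 and 4.06 kb, and Pol II at Myd88 is at 0 in the unstimulated and 360 min libraries.

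The width limit decides which regions are seen. The widest region inside it was of 63970 bp for Pol II at Cd14 in the unstimulated list (score 0.333), and the widest in the Ly96 window was of 47190 bp for Pol II at 120 min (score 0.469). Just outside it lay Pol II regions of 109500 bp at Myd88 in letter B at 240 min (score 0.0545) and of 130370 bp at Ly96 in the unstimulated list (score 0.275). No region wider than 100 kb touched the Tlr4 window.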

How the data were processed

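Each library had 1 deposited list of regions with chromosome, start, end, a scale number and a score per region, and no header line. The score is the authors' own, as deposited, and the sources used here name neither its formula nor the aligner or region caller. Genome build mm9 is named in the submitters' processing notes. Starts were converted to 1-based positions. The lists hold no read counts, and sequencing depth is unknown. Absence from a list means only that no region was listed. No 2 lists were identical.

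Regions up to 100 kb overlapping a window by at least 1 bp were taken, and covered length is the part of the window under them. Regions up to 10 kb (p50, p65, ATF3, H4ac) or 100 kb (Pol II, H3K27me3) were merged over the lists of a target where they overlapped by at least 1 bp. The 10-kb limit for Pol II was added after seeing the data. An H4ac region in both lists of a time but neither unstimulated list counted as gained, and the reverse as lost. A p50 region counted as gained in 3 or more LPS lists with every unstimulated list lacking it, and as lost in 2 or more unstimulated lists with every LPS list lacking it. Tiles of the length of each window served as background. Mean covered length of H4ac, with the LPS times pooled, and of p50 was compared by exact two-sided permutation tests. Merging, calls and covered length were checked on simulated lists. Regions were named in order of the number of lists holding them, then of their best place within a list, up to 5 for each window and target. Where places within a list are given, the share counts regions of that list up to 100 kb.

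The members, windows and lists were chosen with earlier results of these data known. Pathway genes beside the members and markers of macrophages and other cell types are not analysed here, since they need gene positions on mm9. Python 3.11.15, pandas 2.3.3, numpy 2.4.6, SciPy 1.17.1 and matplotlib 3.10.9 were used. Alternatives were other width limits, the better-scored 50% of each list, a covered share of 50% for merged regions, each library left out in turn and the letter as a replicate block.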

Additional observations from a re-analysis of the deposited data

Results flagged for a closer look

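Regions wider than 100 kb lay outside the width rule, and 45 of them overlapped a window, in 26 lists. They are named here where 2 or more LPS lists held one over a window and every unstimulated list of the target lacked it. For Pol II this was so at Myd88 in 4 LPS lists, letter B at 60 min, 120 min and both letters at 240 min, with widths of 0.11 to 84.2 Mb. At Tlr2, 3 LPS lists of Pol II held one, both at 60 min and letter B at 240 min, of 8.16 to 8.50 Mb. H4ac regions of this kind were in 2 LPS lists at Ly96, letter A at 60 and 120 min, with 0.615 and 0.660 Mb, and in 2 LPS lists at Cd14, both at 120 min, with 1.25 and 5.62 Mb. At Myd88, 2 LPS lists of p65, letter X at 60 and 120 min, held one of 5.39 and 5.49 Mb. These widths far exceed the windows, so the regions say nothing particular to the genes in them.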

How the results depend on the processing

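No test of covered length passed its threshold in any setting, and with so few libraries none could have. The direction of several differences depended on the setting. All values are LPS minus unstimulated. With regions of every width, H4ac differed by 10.1 kb at Ly96 and −2.73 kb at Myd88, p50 by −3.39 kb at Tlr2, and Pol II by −15.3 kb at Ly96, −5.20 kb at Cd14, 19.5 kb at Tlr2 and 23.6 kb at Myd88. With regions up to 10 kb, H4ac differed by 2.43 kb at Ly96, −0.373 kb at Tlr2 and −1.87 kb at Myd88, and Pol II by −1.30 kb at Cd14, against 7.75 kb as reported. With regions up to 1 kb, H4ac differed by −1.03 kb at Cd14, −0.517 kb at Tlr2 and −0.0517 kb at Myd88, and Pol II by −0.173 kb at Ly96 and 0.142 kb at Myd88. In the better-scored 50% of each list, H4ac differed by 0.335 kb at Ly96 and −2.47 kb at Myd88, and Pol II by −11.0 kb at Tlr4 (1.65 kb as reported), −0.133 kb at Ly96, 5.73 kb at Tlr2 and 1.09 kb at Myd88. Leaving out each library in turn gave H4ac differences of −15.0 to −6.78 kb at Tlr4, −13.1 to 5.25 kb at Ly96, −4.29 to 7.28 kb at Cd14, −0.746 to 4.54 kb at Tlr2 and −1.60 to 10.5 kb at Myd88. For Pol II it gave −2.03 to 4.35 kb at Tlr4 and −1.51 to 0.48 kb at Tlr2. Where an arm was left with 1 library, this is a value with no test. For H4ac at Tlr4, each of these settings kept the direction, but the size fell to −0.708 kb with regions up to 10 kb and −0.378 kb up to 1 kb. The other direction changes were not traced to a cause, which was not tested.

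Counts of merged regions were small and moved with the setting. In the better-scored 50% of each list, H4ac regions gained were 1 at 60 min and 1 at 240 min and lost ones 0 at each of the 3 times, and 1 p50 region was gained. With regions up to 1 kb, H4ac regions lost were 2 at 60 min and 2 at 120 min and gained ones 0 at 120 min. Asking for 50% of the merged region gave 1 gained at 240 min. Leaving out each library gave 1 to 2 H4ac regions lost at 60 min, 1 to 2 gained and 1 to 2 lost at 120 min, 1 to 3 lost at 240 min, and 0 to 1 p50 regions gained.

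With the letter as a replicate block, the p50 differences were 0.237 kb at Cd14 and 0.853 kb at Tlr2, and no p50 call changed. Every H4ac group holds letters A and B, so the block could change neither the H4ac calls nor the H4ac differences. These stayed at −9.60, −3.93, 1.50, 3.01 and 4.45 kb at Tlr4, Ly96, Cd14, Tlr2 and Myd88. Over tiles, the deviations of libraries from their group mean were correlated. Same-lettered p50 libraries gave 0.133 for A, −0.0355 for C and 0.0447 for D, so the letter was not taken to pair them. Differently lettered p50 libraries gave −0.173 to 0.147. For H4ac the same letters gave 0.0815 to 0.209. With 2 libraries in each group, different letters gave the same values with the opposite sign. Leaving out the letter A library at 240 min, which carries another title date than the rest of its letter, was added after seeing the data and kept the direction in all 5 windows. Depth is unknown, so a region that is not listed may have been below detection.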

Other observations

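H3K27me3, which had no region up to 100 kb in any window, did have wider ones. Over the Myd88 window, 4 of the 5 lists held a region of 28.5 to 29.5 Mb, at 120 min, at 480 min, at 60 min with a 7 h delay and unstimulated. Over the Tlr2 window, the list at 240 min held one of 0.507 Mb.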
